A study of Homo sapiens with 4 samples.

Results

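The RAB genes encode small GTPases that give each membrane compartment of the cell its identity. They were taken from the gene table by name, as protein-coding genes whose symbol is RAB followed by digits and at most 1 further letter from A to D. This gave 63 of the 58735 genes in the table, 19951 of which are protein coding. The rule itself uses no measured value, but it and the lists below were chosen with earlier results of these data known. The genes were placed in 9 lists, most by best-known site of action, from the endoplasmic reticulum through the Golgi, endosomes and lysosomes to secretory vesicles. RAB40A, RAB40B and RAB40C formed 1 of the 9 lists by their SOCS box, a part of the protein and not a site. That list is counted among the compartments below. RAB19 and RAB42 were left without a compartment.

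RAB proteins cycle between a GTP-bound form that sits on a membrane and recruits effectors (tethers, motors and fusion factors) and a GDP-bound form that a chaperone draws back into the cytosol. Exchange factors load GTP, and GTPase-activating proteins, most of them with a TBC domain, end the cycle. Membrane attachment depends on lipids that geranylgeranyl transferase adds to cysteines at the C-terminal end of the protein.

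Total RNA was sequenced from H1299 cells, which come from a human non-small cell lung carcinoma, grown in RPMI1640 with serum and labelled as untreated. The comparison was between 2 libraries of wild-type (WT) cells and 2 libraries of TTC28-KO cells, made from the same line with CRISPR/Cas9 against TTC28, a large tetratricopeptide repeat gene. The labels do not say whether the replicates were separate cultures or whether the knockout was a single clone. All p-values therefore measure only the spread between these libraries, and in a bulk sample fewer cells of a kind and less RNA per cell cannot be told apart.

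The libraries held 25120500 to 28885443 counts. TTC28 was at 4.88 and 5.44 FPKM (reads relative to gene length and library size, the unit of all levels here) in wild type and at 2.96 and 2.99 in the knockout, a log2 fold change of -0.79 ± 0.08 (SE, n = 2 per group, edgeR adjusted p = 2.78e-06). TTC28 RNA was lower and not absent in the libraries labelled as knockout. Of the epithelial markers, KRT8 and KRT18 were well detected (23.7 to 169 FPKM), while CDH1 was at 0 to 0.00594 FPKM and the lung lineage markers NKX2-1, SFTPB, SFTPC and NAPSA did not exceed 0.362. VIM was at 300.0 to 366 FPKM, and no immune or endothelial marker exceeded 0.117. Mitochondrially encoded genes took 5.87% and 6.07% of the counts in wild type and 8.61% and 10.2% in the knockout. With library sizes taken without those genes, all RAB genes that passed the test still did so.

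The C-terminal ends are shown for RAB genes that the results below turn on, because they carry the cysteines that are prenylated and because they show how far close relatives differ in sequence. Each line gives the last 30 bases of the coding sequence in GENCODE release 29, 5′ to 3′ and ending with the stop codon, with the cysteine codons TGT and TGC in capitals.
RAB5A: ccaaccaggaatcagTGTTGTagtaactaa
RAB5B: cagaacaagagccagTGTTGTagcaactga
RAB6A: ccagtcagtgaaggaggcTGTtccTGCtaa
RAB6B: ccggccagcgagggcggcTGCtccTGCtaa
RAB6C: tcatcattgctgcctgtctcgtggaggtga
RAB39B: gtcaaatcagagaggagaTGTttgTGCtag
RAB36: aagaggccctccagcctgggcTGCTGCtaa
RAB26: ggtcgaggggcctccTGCTGCcgcccttga
RAB27B: aagccaccagagaagaaaTGTatcTGCtag
RAB10: gtgacaggctggaagagcaaaTGCTGCtga
RAB38: gccagcTGCtctggcTGTgccaaatcctag
RAB5A, RAB5B, RAB36, RAB26 and RAB10 have 2 adjacent cysteine codons, directly before the stop codon in RAB36 and RAB10 and with other codons after them in RAB5A, RAB5B and RAB26. RAB6A, RAB6B, RAB39B and RAB27B have a pair split by 1 codon. Over the last 6 codons before the stop, 30 of the 63 genes had the adjacent pair, 20 the split pair and 11 another arrangement. RAB6C and its near-copy RAB6D had no cysteine codon there. Genes that were higher in the knockout and genes that were lower appear under both main arrangements.

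Testing required a level of 1 FPKM or more in 2 or more of the 4 libraries, which held for 44 of the 63 RAB genes. Of these, 42 passed through both groups and 2, RAB36 and RAB27B, only through wild type, so that those 2 could enter the test only by being higher there. Among the 44, 9 rose, 9 fell and 26 did not pass the threshold of 0.05 on the adjusted p-value. The share called, 40.9%, stood beside 50.3% of the 13079 genes tested in the whole table, with 25.1% of all tested genes called higher and 25.2% called lower. The median log2 fold change of the RAB genes was 0.06, against 0.00 over all tested genes, and the median size of the change was 0.19 against 0.27. The share called among the RAB genes was thus below that of the table, and no test of that difference was made.

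The summed level of the 63 genes was 741 and 753 FPKM in wild type and 763 and 733 in the knockout, so the groups overlapped. RAB7A, the GTPase of late endosomes and lysosomes, was the most abundant member in every library. RAB10 and RAB11B came next, with RAB10 above RAB11B in both wild-type libraries and below it in both knockout libraries. Levels of the tested genes spanned from RAB7A at 133 to 144 FPKM down to RAB36 at 0.459 in 1 knockout library.

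**Figure D1:**
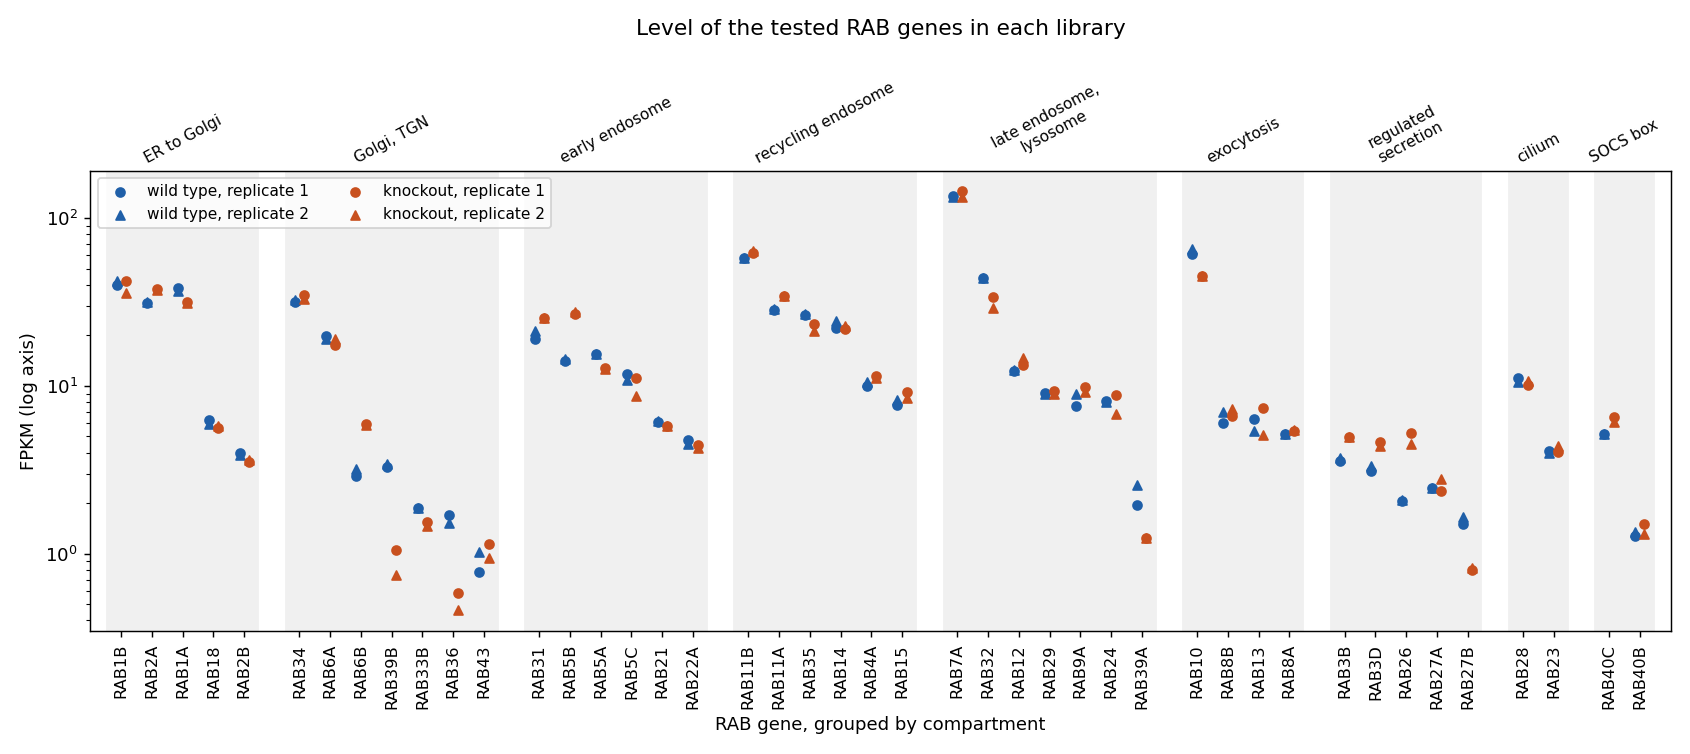
Level of the 44 tested RAB genes in each of the 4 libraries (FPKM, log axis), grouped by compartment and ordered by mean level, with circles and triangles for replicates 1 and 2. RAB5B, RAB6B and RAB26 stand clearly higher in the knockout, RAB39B, RAB36 and RAB27B clearly lower, and most other genes lie within a narrow band.

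**Figure D2:**
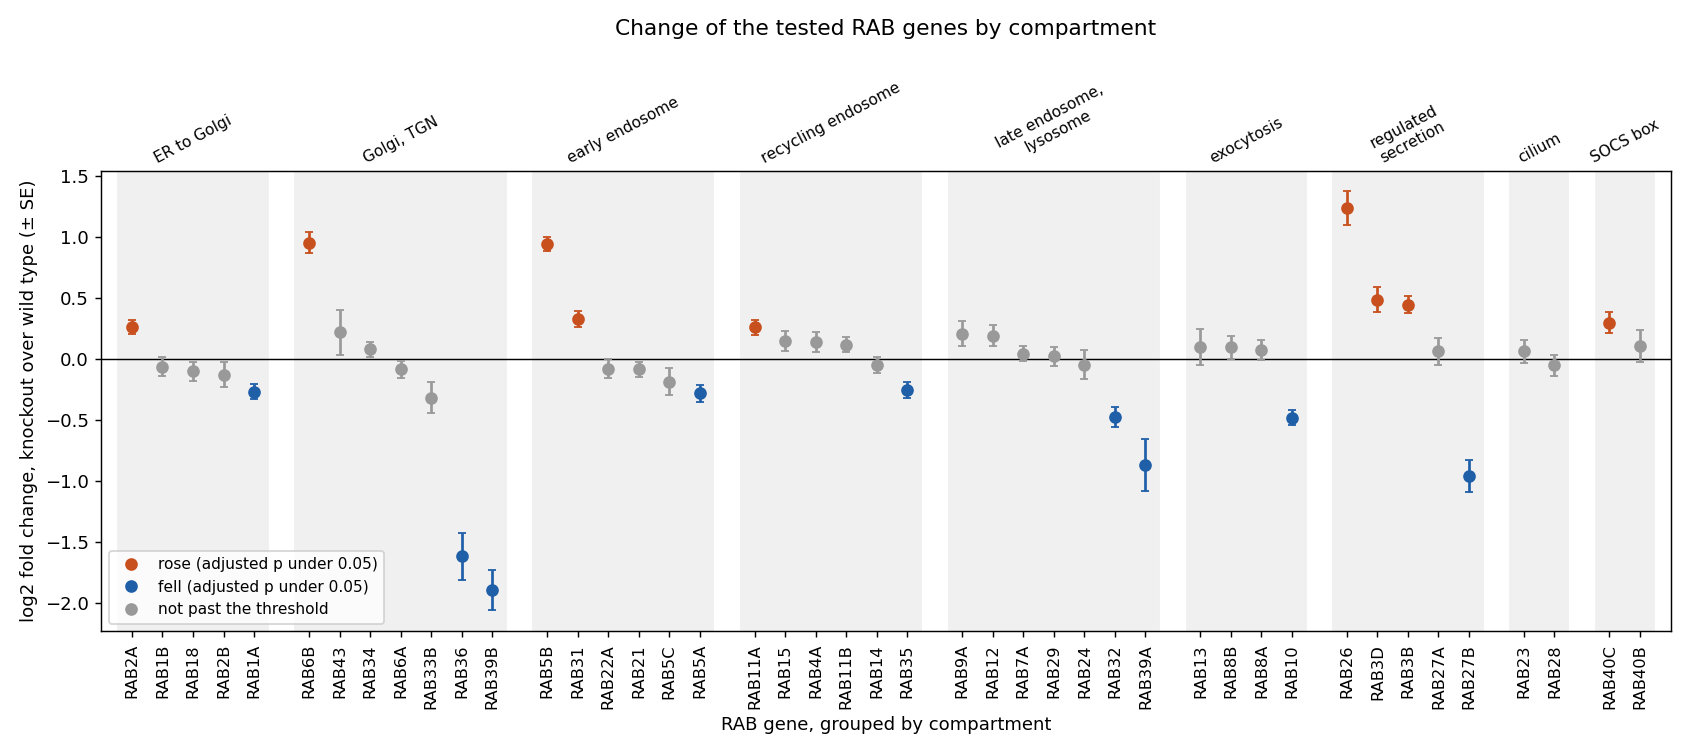
Log2 fold change, knockout over wild type, of the 44 tested RAB genes with standard errors from the edgeR fit (n = 2 libraries per group), grouped by compartment. Of these, 9 rose (orange), 9 fell (blue) and 26 did not pass the threshold (grey), and 8 of the 9 lists with tested genes hold at least 1 that passed.

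Among the early endosome genes, RAB5B was nearly doubled in the knockout while its paralogue RAB5A fell. The RAB5 proteins drive homotypic fusion of early endosomes through effectors such as EEA1. RAB5B was at 14.1 and 14.4 FPKM in wild type and at 27.0 and 27.7 in the knockout. Both knockout libraries lay far above both wild-type libraries, and the log2 fold change was 0.95 ± 0.06 (SE, n = 2 per group, edgeR adjusted p = 8.43e-08). RAB5A was at 15.5 and 15.4 FPKM in wild type and at 12.9 and 12.6 in the knockout. The groups did not overlap, and the log2 fold change was -0.28 ± 0.07 (adjusted p = 0.0046). With the median change of the neighbouring genes removed, the RAB5A call was lost (-0.13, adjusted p = 0.151). RAB5C, the third paralogue, was at 11.7 and 10.8 FPKM against 11.1 and 8.65, with overlapping groups and an adjusted p of 0.18.

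RAB31, which acts between the trans-Golgi network and endosomes, rose from 19.1 and 21.4 FPKM to 25.5 and 25.3. Its log2 fold change was 0.33 ± 0.07 (adjusted p = 0.00106), and the call was lost on a TPM scale (0.16, adjusted p = 0.0763). RAB21 and RAB22A, at 4.29 to 6.21 FPKM in all libraries, did not pass the test, and RAB20 had only 31 summed counts in wild type and 41 in the knockout. Of the 6 early endosome genes that were tested, 2 were thus higher, 1 was lower and 3 did not pass. Their median was -0.08. The summed level of the list was 71.5 and 73.1 FPKM in wild type and 87.3 and 84.7 in the knockout, without overlap, and RAB5B supplied most of that difference.

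The RAB5 transcripts therefore made up their summed level in other proportions. RAB5B held 34.1% and 35.5% of the summed RAB5 FPKM in wild type and 53.0% and 56.6% in the knockout. RAB5A went from 37.5% and 38.0% to 25.2% and 25.7%, and RAB5C from 28.4% and 26.6% to 21.8% and 17.7%. RAB5A was thus the leading paralogue in both wild-type libraries and RAB5B in both knockout libraries. Of the exons of RAB5C, 28.8% overlap those of AC099811.2 on the same strand. The part of shared reads in the RAB5C values was not tested. Reads of the paralogues can be told apart from each other over nearly their whole length. The coding sequences of RAB5A and RAB5B were 72.5% identical in an alignment, and the longest run of bases shared by their transcripts was 14.

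The promoter windows of this pair are shown because the paralogues moved in opposite directions. They are from RefSeq (GRCh38.p14) and run from 250 bases before to 50 bases after the annotated start. Capitals mark 4 motifs searched on both strands, none of which contains another: the CCAAT box (CCAAT), the GC box (GGGCGG), an E-box (CACGTG) and the TATA box (TATAAA). On the reverse strand the GC box reads CCGCCC and the CCAAT box ATTGG.
RAB5A, chr3:19946847-19947146, plus strand: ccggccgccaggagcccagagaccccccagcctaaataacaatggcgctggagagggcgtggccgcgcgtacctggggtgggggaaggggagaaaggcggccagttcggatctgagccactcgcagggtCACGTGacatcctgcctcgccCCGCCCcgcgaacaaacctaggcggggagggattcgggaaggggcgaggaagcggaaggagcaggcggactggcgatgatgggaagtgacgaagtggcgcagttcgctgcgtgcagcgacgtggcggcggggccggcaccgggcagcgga
RAB5B, chr12:55973699-55973998, plus strand: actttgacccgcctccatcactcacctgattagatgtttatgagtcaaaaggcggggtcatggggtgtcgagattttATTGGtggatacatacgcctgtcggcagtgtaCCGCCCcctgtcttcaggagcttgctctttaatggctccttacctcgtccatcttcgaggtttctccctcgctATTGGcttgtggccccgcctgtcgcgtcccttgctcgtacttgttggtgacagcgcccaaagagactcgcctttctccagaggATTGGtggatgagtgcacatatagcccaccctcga
The RAB5B window holds the CCAAT box on the reverse strand at 3 places, and the RAB5A window holds the E-box at 1 place and no CCAAT box. The CCAAT box was present in 26% of the 50 RAB promoters in the table and in 35.7% of all 27305 promoters of that length. The GC box was in 78% of the RAB promoters against 44.5% of all, the E-box in 12% against 7.41%, and the TATA box in 8.0% against 12%. A match describes the letters of the window and no more.

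In the Golgi and trans-Golgi network list, RAB6B rose while RAB39B and RAB36 showed the deepest falls among all tested RAB genes. RAB36 had passed the filter only through wild type. RAB6B is the second form of RAB6, the GTPase of retrograde Golgi traffic, and is known mainly from neurons. It was at 2.89 and 3.20 FPKM in wild type and at 5.93 and 5.87 in the knockout. The log2 fold change was 0.96 ± 0.09 (SE, n = 2 per group, edgeR adjusted p = 1.66e-06), and the groups lay far apart. The widely expressed RAB6A was at 19.8 and 19.0 FPKM against 17.5 and 19.1, with overlapping groups and an adjusted p of 0.328. RAB6B therefore went from 12.6% and 14.3% of the summed RAB6 level to 25% and 23.1%. Of the exons of RAB6B, 6.34% overlap those of SRPRB on the opposite strand, and whether reads were counted by strand is not known. SRPRB itself fell (log2 fold change -0.38 ± 0.07, adjusted p = 0.000809), and the part of shared reads in the RAB6B value was not tested.

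RAB39B, an X-linked gene whose loss is known to cause intellectual disability with early parkinsonism, was at 3.29 and 3.44 FPKM in wild type and at 1.04 and 0.748 in the knockout. This was 3.72 times lower, with a log2 fold change of -1.89 ± 0.16 (adjusted p = 1.14e-06). RAB36, which binds the lysosomal effector RILP and has been placed at the Golgi, was at 1.70 and 1.53 FPKM in wild type and at 0.585 and 0.459 in the knockout. It was 3.07 times lower, with a log2 fold change of -1.62 ± 0.19 (edgeR adjusted p = 1.54e-05). RAB36 could enter the test only by being higher in wild type. Both knockout libraries lay below both wild-type libraries for either gene.

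RAB34, which helps to position lysosomes and to build cilia, had the highest level of the Golgi list. It was at 31.8 and 32.5 FPKM in wild type and at 34.7 and 33.2 in the knockout and did not pass (log2 fold change 0.08 ± 0.06, adjusted p = 0.288). RAB33B, a Golgi GTPase that binds the autophagy factor ATG16L1, just missed the threshold (log2 fold change -0.31 ± 0.13, adjusted p = 0.0564). RAB43, at 0.78 to 1.14 FPKM, also did not pass, and most of its exon length is shared with the read-through gene ISY1-RAB43. Over the 7 tested genes of 12, 1 rose, 2 fell and 4 did not pass, and the median was -0.08. The genes that moved are of low level and moved in both directions. The summed level of the list was nearly the same in all libraries, at 63.8 and 64.3 FPKM in wild type and 64.4 and 63.6 in the knockout.

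The RABs of regulated secretion had the largest median change of the lists, 0.45 over 5 tested genes of 9. Of the 5, 3 rose, 1 fell and 1 did not pass, beside 25.1% of all tested genes called higher and 25.2% lower. The lists were drawn up with earlier results known, and no test between them was made. The RABs of regulated secretion dock and release secretory granules and synaptic vesicles. All were of low level in H1299, at most 5.26 FPKM. RAB26, a granule protein of secretory cells, was at 2.06 and 2.10 FPKM in wild type and at 5.26 and 4.51 in the knockout. This was the largest rise among the tested RAB genes, with a log2 fold change of 1.24 ± 0.14 (SE, n = 2 per group, edgeR adjusted p = 9.06e-06). RAB3D, found on exocrine granules, went from 3.09 and 3.35 FPKM to 4.65 and 4.38 (log2 fold change 0.49 ± 0.10, adjusted p = 0.00114). RAB3B, the most abundant of the list, went from 3.55 and 3.72 FPKM to 4.97 and 4.93 (0.45 ± 0.07, adjusted p = 0.000143). In all 3 the knockout libraries lay above both wild-type libraries.

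RAB27B fell in the same list. RAB27A and RAB27B anchor secretory granules and exosome-bearing endosomes at the plasma membrane. RAB27B was at 1.5 and 1.65 FPKM in wild type and at 0.801 and 0.815 in the knockout. Its log2 fold change was -0.96 ± 0.13 (edgeR adjusted p = 4.87e-05). It had passed the filter only through wild type, so that it could enter the test only by being higher there. RAB27A was at 2.47 and 2.46 FPKM against 2.36 and 2.79, with overlapping groups and an adjusted p of 0.664. The share of RAB27B in the pair went from 37.8% and 40.2% to 25.3% and 22.6%. RAB3A, RAB3C, RAB37 and RAB44 were below the filter, with at most 62 summed counts in a group. The summed level of the list was 13.5 and 14.1 FPKM in wild type and 18.8 and 18.1 in the knockout, without overlap.

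**Figure D3:**
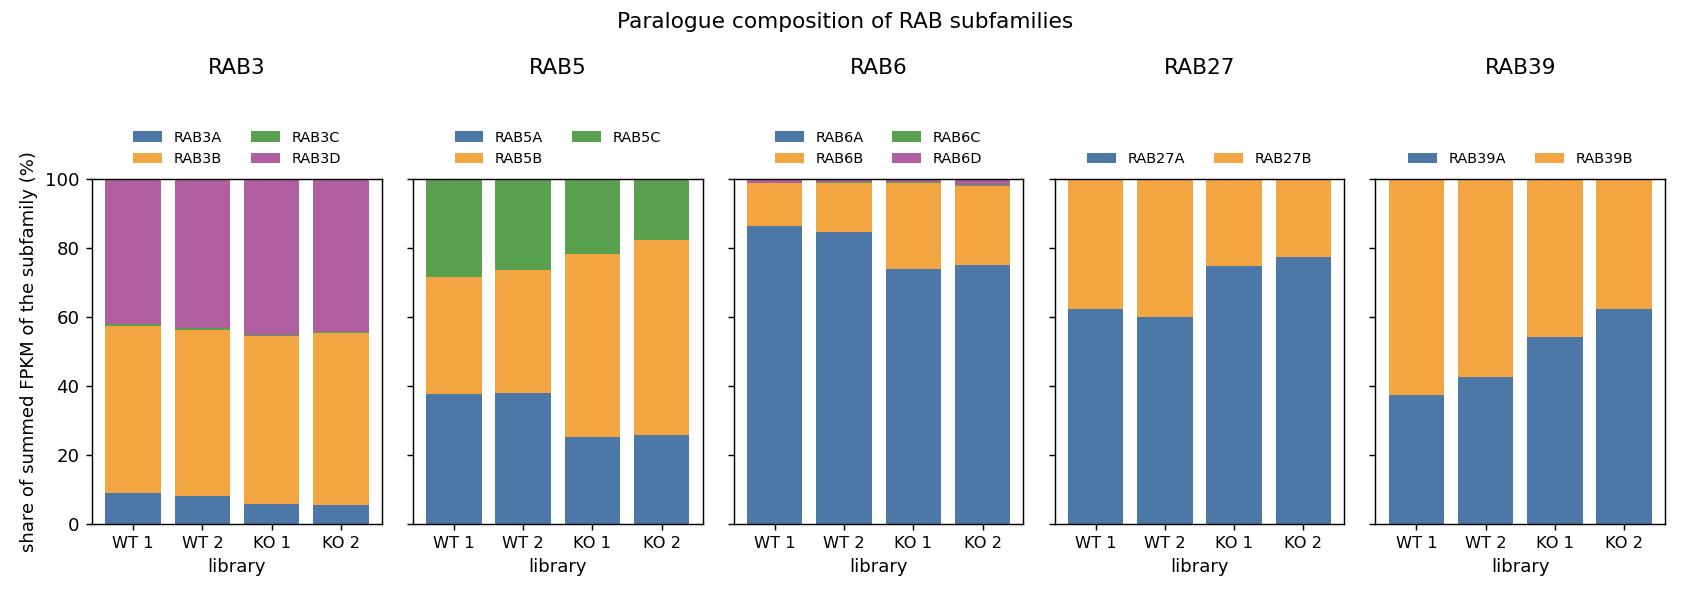
Share of each paralogue in the summed FPKM of its subfamily (%, stacked bars from 0 to 100) in the 4 libraries, for RAB3, RAB5, RAB6, RAB27 and RAB39. RAB5B grows from 34.1% and 35.5% to 53.0% and 56.6% and RAB6B from 12.6% and 14.3% to 25% and 23.1%, while RAB27B and RAB39B shrink.

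RAB10 was the member of the exocytosis list that changed, and it was among the most abundant of all RAB genes. It carries secretory and glucose transporter vesicles to the plasma membrane and is a substrate of the kinase LRRK2. RAB10 was at 61.2 and 65.7 FPKM in wild type and at 45.5 and 45.3 in the knockout. The groups did not overlap, and the log2 fold change was -0.48 ± 0.06 (SE, n = 2 per group, edgeR adjusted p = 3.19e-05). Its relatives RAB8A, RAB8B and RAB13, which share the traffic to the plasma membrane and to junctions, were at 5.10 to 7.42 FPKM and did not pass, with log2 fold changes of 0.08 to 0.10. RAB10 set the sum of the list, which was 78.7 and 83.4 FPKM in wild type and 64.9 and 63.2 in the knockout.

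Of the late endosome, lysosome and autophagosome genes, none rose, 2 fell and 5 did not pass among 7 tested of 10, with a median of 0.02. RAB7A was at 136 and 134 FPKM in wild type and at 144 and 133 in the knockout, with overlapping groups (log2 fold change 0.05 ± 0.06, edgeR adjusted p = 0.565). RAB32, which serves melanosomes and related organelles, was at 44.0 and 43.9 FPKM against 33.8 and 29.3. It fell by 0.47 on the log2 scale (SE 0.08, n = 2 per group, adjusted p = 0.000324). RAB39A, a relative of RAB39B linked to phagosomes, was at 1.96 and 2.55 FPKM against 1.23 in both knockout libraries (log2 fold change -0.87 ± 0.21, adjusted p = 0.0039). That call was lost without wild-type replicate 2 (-0.67, adjusted p = 0.0726). RAB9A, RAB12, RAB24 and RAB29 lay between 6.80 and 14.7 FPKM, with log2 fold changes of -0.04 to 0.21 that did not pass.

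RAB39A and RAB39B thus both fell, and their joint level went from 5.25 and 5.98 FPKM to 2.28 and 1.98. RAB38, the closest relative of RAB32, lay below the filter but differed in its counts, with 4 and 2 in wild type and 37 and 28 in the knockout. Scaled by library size, the ratio of the sums was 11.1, with a 95% exact Clopper-Pearson interval from 4.83 to 31.3 that covers counting error only. In a fit without the filter, where 25.7% of 30992 genes were called, RAB38 had a log2 fold change of 3.40 ± 0.52 (edgeR adjusted p = 1.48e-09). Its level stayed below 1 FPKM in all libraries (0.104 and 0.0501 in wild type, 0.906 and 0.782 in the knockout).

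Between the endoplasmic reticulum and the Golgi, RAB1A was 1.20-fold lower in the knockout and RAB2A 1.20-fold higher, and both calls were lost when the median change of the neighbouring genes was removed (RAB1A 0.01, edgeR adjusted p = 0.95, and RAB2A 0.06, 0.448). RAB1A and RAB1B tether vesicles that arrive at the Golgi. RAB1A was at 38.2 and 37.0 FPKM in wild type and at 31.4 and 31.0 in the knockout (log2 fold change -0.27 ± 0.06, edgeR adjusted p = 0.00255, n = 2 per group), without overlap. RAB1B, the most abundant of the list, was at 39.7 and 42.1 FPKM against 42.3 and 36.0 and did not pass (log2 fold change -0.06 ± 0.08, adjusted p = 0.528). RAB2A, which acts at the same boundary and in autophagosome fusion, went from 31.0 and 31.6 FPKM to 37.8 and 37.2 (0.26 ± 0.06, adjusted p = 0.0023). On a TPM scale the call on RAB2A was lost (0.10, adjusted p = 0.262). RAB18, found on lipid droplets, and RAB2B did not pass. The sum of the 5 genes, all tested, was 119 and 121 FPKM against 121 and 114, and the median was -0.10. CEP68 overlaps 22.9% of the exons of RAB1A on the opposite strand, and its own log2 fold change was 0.09 ± 0.09 (adjusted p = 0.383).

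Recycling endosome genes showed 1 rise and 1 fall among 6 tested of 9. RAB11A, which returns cargo from the recycling endosome, went from 28.4 and 28.8 FPKM to 34.3 and 34.2 (log2 fold change 0.26 ± 0.06, edgeR adjusted p = 0.00241, n = 2 per group). This call was lost on a TPM scale (0.09, adjusted p = 0.271). RAB35, of fast recycling and cytokinesis, went from 26.3 and 27.0 FPKM to 23.3 and 21.2 (-0.25 ± 0.07, adjusted p = 0.00546). It narrowly missed the threshold without wild-type replicate 2 (adjusted p = 0.0501). AC004812.2 overlaps 14.8% of the exons of RAB35 on the opposite strand and had 172 and 159 counts in wild type and 113 and 128 in the knockout (-0.42 ± 0.18, adjusted p = 0.0629). Its part in the RAB35 value was not tested. RAB11B was the most abundant of the list, at 57.7 and 58.2 FPKM against 62.1 and 63.6, and did not pass (0.12 ± 0.06, adjusted p = 0.111). RAB4A, RAB14 and RAB15 did not pass either. The epithelial RAB25 and RAB17 were close to undetected, with 1 and 4 counts over all libraries, and RAB4B had 39. The median of the list was 0.13.

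The remaining lists are small. RAB28 and RAB23, linked to cilia, did not pass; RAB28 was at 11.2 and 10.5 FPKM in wild type and at 10.1 and 10.7 in the knockout (log2 fold change -0.05 ± 0.09, edgeR adjusted p = 0.663). Of the RAB40 genes, whose SOCS box joins them to a ubiquitin ligase, RAB40C went from 5.16 FPKM in both wild-type libraries to 6.55 and 6.12 (0.30 ± 0.09, adjusted p = 0.0103, n = 2 per group). The call on RAB40C was lost on a TPM scale (0.13, adjusted p = 0.233), without wild-type replicate 1 (adjusted p = 0.0675) and without wild-type replicate 2 (0.0798). RAB40B did not pass, and RAB40A had 135 summed counts in wild type and 99 in the knockout.

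The 19 genes below the filter were given by their counts. RAB19 had no count in any library, and RAB25 and RAB44 had 1 count each, in wild type. RAB38 was the single gene of the 19 that passed the threshold in the fit without a filter. RAB42 had 25 summed counts in wild type and 10 in the knockout, RAB33A 17 and 7, and RAB3C 19 and 9. RAB30 was the best covered of them, with 294 and 344. RAB41 had 52 and 64 summed counts, RAB6D 36 and 54, RAB6C 6 and 5, RAB7B 18 and 31, RAB9B 48 and 41, RAB37 37 and 44, and RAB3A 62 and 54. RAB6C and RAB6D share a run of 398 bases, and RAB6C shares 164 with RAB6A, so reads could have been split or lost among them and their values are uncertain.

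Several RAB genes moved together with the genes around them on the chromosome. For each gene the median log2 fold change of the 25 tested genes on either side was taken as the level of its neighbourhood. It was 0.36 around RAB5B on chromosome 12, 0.23 around RAB6B on chromosome 3 and 0.21 around RAB2A on chromosome 8. It was -0.28 around RAB10 and -0.27 around RAB1A, both on chromosome 2, and -0.15 around RAB5A on chromosome 3. With that median removed in the fit, RAB1A, RAB2A and RAB5A were no longer called. RAB5B (0.58), RAB6B (0.73) and RAB10 (-0.20) stayed past the threshold. The same step brought RAB7A (-0.17), RAB6A (-0.23), RAB21 (-0.20) and RAB33B (-0.34) past it.

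RAB26, RAB39B, RAB36, RAB27B and RAB39A, which had the largest changes besides RAB5B and RAB6B, had neighbourhoods of -0.19 to 0.14. With the median removed, RAB26 was at 1.25, RAB39B at -1.71, RAB36 at -1.76, RAB27B at -1.06 and RAB39A at -0.86.

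**Figure D4:**
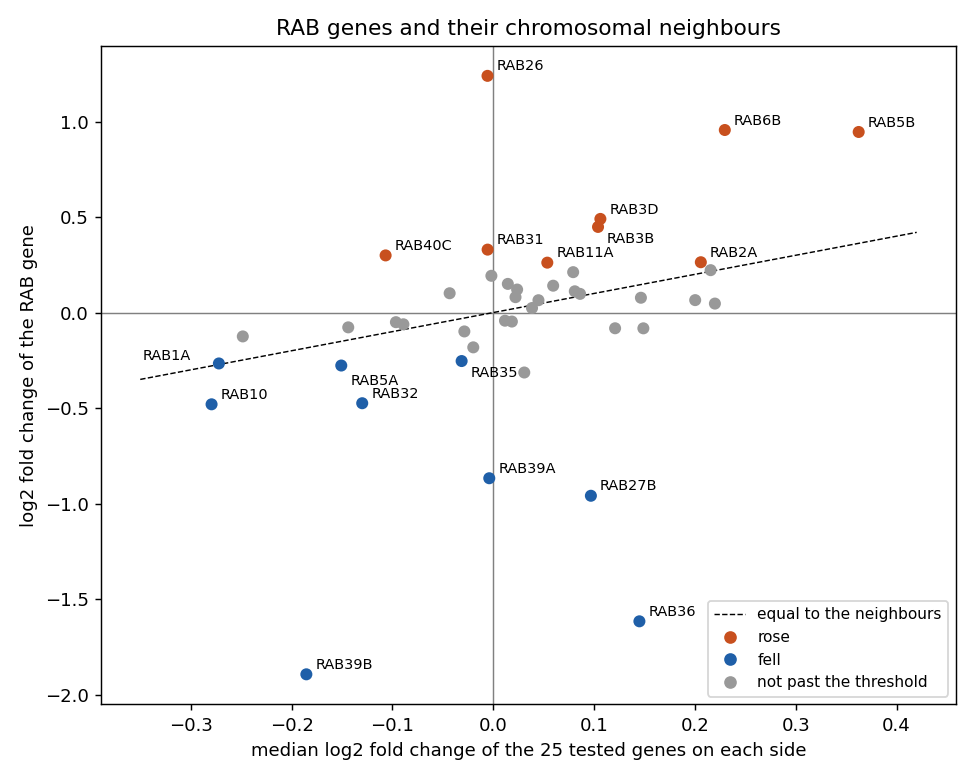
Log2 fold change of each tested RAB gene (vertical axis) against the median log2 fold change of the 25 tested genes on each side of it (horizontal axis), with a dashed line where both are equal. RAB1A and RAB2A lie close to the line, whereas RAB26, RAB39B, RAB36, RAB27B and RAB39A lie far from it with neighbourhood medians of -0.19 to 0.14.

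The genes that load, switch, deliver and read the RAB proteins were followed through 5 lists with 157 genes. Of the 133 tested, 49 rose, 27 fell and 57 did not pass, a share called of 57.1% beside 50.3% of all tested genes. On a TPM scale the balance turned, to 21 higher and 46 lower. Over all tested genes it went from 3281 higher and 3300 lower to 1924 and 5304. Leaving out wild-type replicate 1 reduced the number higher, and leaving out wild-type replicate 2 the number lower. Both numbers also shrank over all tested genes. Their median log2 fold change was 0.10, against 0.00 over all tested genes, and 3 of the 133 passed the filter only through the knockout. The counts by direction are given for each list, and no test between lists was made. The GTPase-activating proteins had 16 risen, 3 fallen and 11 not past the threshold of 30 tested, with a median of 0.26. The exchange factors had 17, 10 and 20 of 47, with a median of 0.07, and the effectors 13, 11 and 21 of 45, with a median of 0.03.

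The 4 GTPase-activating proteins with the smallest p-values rose. TBC1D8 went from 4.01 and 3.96 FPKM to 7.01 and 7.48, a log2 fold change of 0.87 ± 0.08 (SE, n = 2 per group, edgeR adjusted p = 2.62e-06). TBC1D1, which with TBC1D4 holds RAB10 inactive until insulin signals or muscle works, went from 13 and 14.6 FPKM to 21.0 and 20.7 (0.60 ± 0.07, adjusted p = 9.55e-06). TBC1D2, known to act on RAB7, and its relative TBC1D2B had log2 fold changes of 0.62 ± 0.08 and 0.69 ± 0.09. The median around TBC1D8 was 0.48, and with it removed TBC1D8 was at 0.39 (adjusted p = 0.00181). The summed level of the list was 192 and 201 FPKM in wild type and 231 and 230 in the knockout.

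Among the exchange factors, RAB3GAP1 went from 15.1 and 16.4 FPKM to 28.3 and 27.4, a log2 fold change of 0.82 ± 0.06 (edgeR adjusted p = 4.09e-07, n = 2 per group). Its product, with that of RAB3GAP2, activates RAB18 and also ends the cycle of RAB3. The median around RAB3GAP1 was 0.52, and with it removed the gene was at 0.30 (adjusted p = 0.00154). DENND3, an activator of RAB12, went from 3.95 and 4.11 FPKM to 7.66 and 8.01 (0.96 ± 0.06, adjusted p = 1.17e-07). ALS2CL went from 1.07 and 0.859 FPKM to 1.95 and 2.08 (1.07 ± 0.12, adjusted p = 1.37e-05). DENND5B, whose family acts on RAB6 and RAB39, fell from 9.13 and 9.63 FPKM to 5.68 and 6.39 (-0.63 ± 0.07, adjusted p = 1.11e-05). The median around DENND5B was -0.42, and with it removed the gene was at -0.21 (adjusted p = 0.0261).

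Of the tested effectors, RABEPK, a RAB9 partner, had the smallest p-value and fell, from 23.5 and 21.9 FPKM to 14.2 and 11.5 (log2 fold change -0.81 ± 0.09, edgeR adjusted p = 9.27e-06, n = 2 per group). BICD1, which links RAB6 vesicles to dynein, went from 4.70 and 4.35 FPKM to 2.88 and 2.85 (-0.66 ± 0.08). RILPL2, which binds RAB8 and RAB10 after LRRK2 has phosphorylated them, went from 5.10 and 4.99 FPKM to 3.46 and 3.01 (-0.63 ± 0.09). RUFY2 rose, from 2.55 and 2.27 FPKM to 3.43 and 3.79 (0.58 ± 0.10). With the neighbourhood median of -0.28 removed, BICD1 was at -0.37 (adjusted p = 0.00141). SYTL5, of the synaptotagmin-like family that binds RAB27, was below the filter, with 86 and 85 counts in wild type and 8 and 2 in the knockout. In the fit without a filter its log2 fold change was -4.05 ± 0.36 (edgeR adjusted p = 3.49e-27), and it was named after its values were seen.

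All 8 genes of prenylation and membrane delivery were tested, and 1 rose, 3 fell and 4 did not pass. RABGGTA, a subunit of the geranylgeranyl transferase, went from 7.77 and 7.74 FPKM to 6.05 and 6.16 (log2 fold change -0.34 ± 0.08, edgeR adjusted p = 0.00398, n = 2 per group). With the neighbourhood median removed it was at 0.02 (adjusted p = 0.867). RABIF had -0.30 ± 0.10 (adjusted p = 0.025) and CHML, the second RAB escort protein, 0.23 ± 0.08 (adjusted p = 0.0236). Both were lost with DESeq2 (adjusted p = 0.0916 and 0.0577). The CHML call was also lost in edgeR with total counts (0.16, adjusted p = 0.0923) and on a TPM scale (0.06, adjusted p = 0.575). It was lost with limma on log2(FPKM + 1) and log2(FPKM + 0.1) as well (adjusted p = 0.0551 and 0.0549). Without wild-type replicate 1 or 2, RABIF was at -0.35 and -0.26, and CHML at 0.19 and 0.26.

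Both LRRK kinases, which phosphorylate RAB proteins, differed between the groups and did so in opposite directions. LRRK2, whose substrates include RAB8A and RAB10, went from 1.78 and 2.12 FPKM to 3.96 and 3.98 (log2 fold change 1.03 ± 0.09, edgeR adjusted p = 1.12e-06, n = 2 per group). LRRK1, known to phosphorylate RAB7A, was below the filter in all libraries, at 0.547 and 0.64 FPKM in wild type and 0.0143 and 0.0186 in the knockout. It had 252 and 307 counts in wild type and 7 and 8 in the knockout. In the fit without a filter its log2 fold change was -5.17 ± 0.26 (adjusted p = 3.75e-88). LRRK1 was named after its values were seen. PPM1H, a phosphatase that reverses LRRK2's action on RAB8A and RAB10, did not pass (adjusted p = 0.815). Its relative PPM1J rose from 0.93 and 0.818 FPKM to 1.40 in both knockout libraries (0.68 ± 0.20, adjusted p = 0.0109), and it had passed the filter only through the knockout, so that it could enter the test only by being higher there. The PPM1J call was lost with DESeq2 (adjusted p = 0.0582) and without wild-type replicate 2 (0.58, adjusted p = 0.0961).

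**Figure D5:**
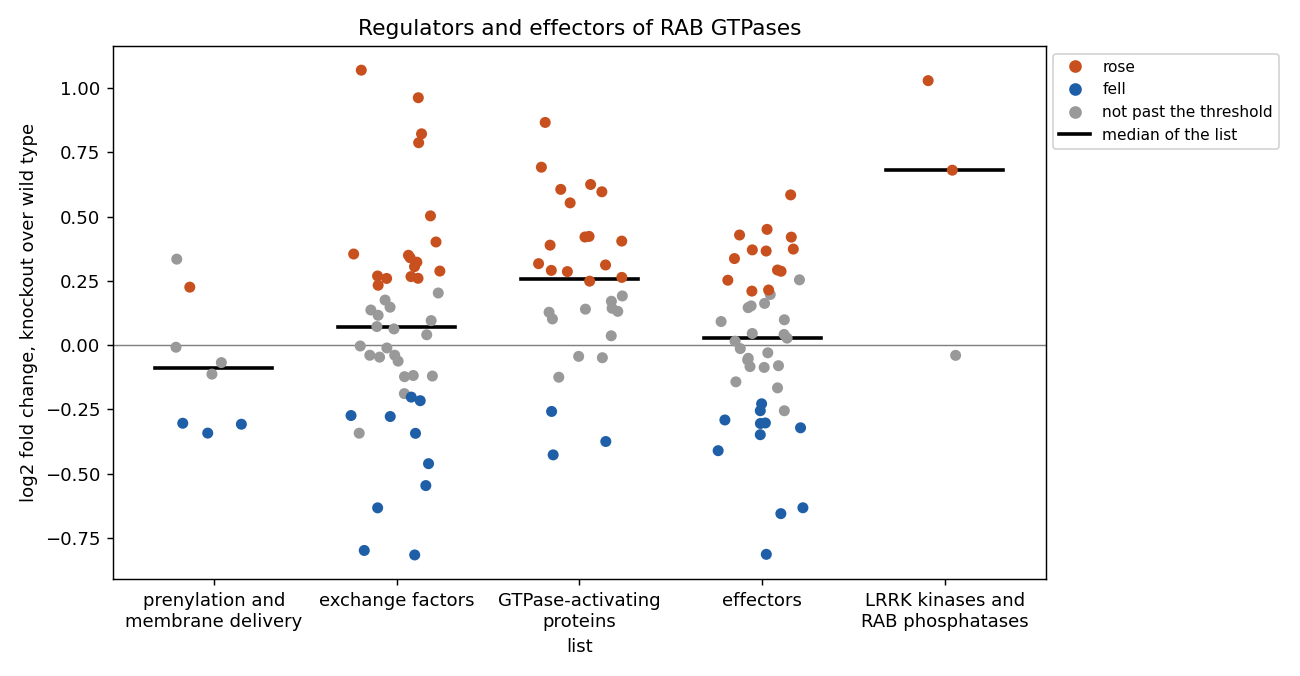
Log2 fold change of the 133 tested regulators and effectors of RAB GTPases, 1 point per gene, in 5 lists, with a bar at the median of each list. Of the 30 GTPase-activating proteins 16 rose and 3 fell (median 0.26), while of the 45 effectors 13 rose and 11 fell (median 0.03).

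The authors' deposited table called 17 of the 44 tested RAB genes at an adjusted p under 0.05, 8 of them higher and 9 lower. All 17 were among the 18 called with edgeR, with the same sign. The largest difference in log2 fold change between the authors' deposited table and the edgeR fit was 0.02. RAB40C was the gene called only with edgeR, with an adjusted p of 0.0849 in the authors' deposited table.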

How the data were processed

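Total RNA of 4 H1299 libraries was sequenced after Illumina TruSeq preparation, per the labels' protocols. The submitters' processing notes name HISAT2 2.0.5 and hg38. The counting program, its annotation and its use of strand were not given in the sources used here. Each library has a column of whole-number counts in the deposited table, per the file headers. FPKM values in the same table were made by the authors from those counts, the gene length and an effective library size. Group means of normalized signal were deposited by the authors and were not used. The deposited log2 fold change and the deposited p-value, raw and adjusted, are the authors' own, and the headers name no tool for them.

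Counts were tested with edgeR 4.0.16 (R 4.3.3, quasi-likelihood test, TMM factors 0.978 to 1.02, two-sided, no covariates), with Benjamini-Hochberg adjustment over the 13079 genes with at least 1 FPKM in 2 libraries. The common biological coefficient of variation was 0.0566 and the median standard error 0.0886. A permutation of 2 against 2 libraries cannot give an exact p under 0.333, so none was used. Library totals were 25808423 and 27043491 in wild type and 28885443 and 25120500 in the knockout. Errors after ± in a log2 fold change are standard errors worked back from the F statistic of the edgeR test. Each is the size of the log2 fold change divided by the square root of F.

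The members, the compartment and regulator lists, the tests and the alternatives were chosen with earlier results of these data known. Full values are given for TTC28, for up to 8 RAB genes with the largest rise and 8 with the largest fall past the threshold, for the most abundant RAB gene of each compartment, and for up to 4 genes with the smallest p of each regulator list. Some genes that this rule covers are not reported here. RAB genes under 1 FPKM in 3 or more libraries are given by counts. Alternatives were other filters, library scalings, DESeq2 1.42.0, limma 3.58.1 on log2(FPKM + 1) and log2(FPKM + 0.1), a replicate block, removal of the median of 25 neighbours on each side, and leaving out each library. On a TPM scale, library sizes were set so that summed FPKM was equal.

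All 63 RAB genes had the same coordinates and exon-union length in GENCODE release 29, from which coding ends and exon overlaps were read. Overlaps were also large for some genes that did not pass. Examples are RAB23 (57.7% of exons, with BAG2), RAB24 (44.8%, with MXD3) and RAB8A (37.8%, with AC008894.2). Their part in these values was not tested. RefSeq promoter windows (GRCh38.p14) were matched by symbol for 50 of 63, without RAB1A, RAB2A, RAB12, RAB15, RAB20, RAB26, RAB33A, RAB33B, RAB36, RAB37, RAB38, RAB39B and RAB44. The fits were tested on simulated data over 13079 genes. There edgeR recovered 94% of 50 genes raised and 82% of 50 lowered by 1 on the log2 scale. It recovered 86% and 58% of those changed by 0.5, and called 0.0466% of unchanged genes. In the simulation 12879 genes were unchanged and all had the common coefficient of variation, whereas 50.3% of the real genes were called. These rates therefore do not give the recovery in the real comparison.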

Additional observations from a re-analysis of the deposited data

How the results depend on the processing

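Of the 18 called RAB genes, 10 were called under every alternative that could fit them and 7 were lost under at least 1. The call on 1 more, RAB1A, was lost with a change of sign. A filter of 5 FPKM left 30 RAB genes, of which 5 were lower in the knockout, since the low genes RAB39B, RAB36, RAB27B and RAB39A were no longer tested. RAB26, RAB3B and RAB3D, which had risen, were not tested under that filter either. RAB6B passed it only through the knockout, so that it could enter that test only by being higher there. The same filter left 30 regulators and effectors higher and 14 lower among 73, and 4346 called genes among 7490. On a TPM scale the median of all tested genes moved to -0.17, and 26.6% of all called genes were higher, against 49.9% with TMM factors. RAB genes then numbered 5 higher and 18 lower, and regulators and effectors 21 higher and 46 lower. Relative to that shift the RAB median of -0.11 lay above the median of all genes. With total counts the all-gene median was -0.07 and 40.0% of called genes were higher. Removing the median of the neighbouring genes changed the sign of RAB1A (0.0055, edgeR adjusted p = 0.95) and RABGGTA (0.0196, adjusted p = 0.867). Neither was then called. It also changed the sign of RAB7A (-0.1728), which was then called. Leaving out 1 library at a time gave 8 to 10 RAB genes higher, 7 to 11 lower, 32 to 50 regulators and effectors higher, 16 to 25 lower, 4854 to 6456 called genes, and a TTC28 log2 fold change of -0.87 to -0.72. These fits take the spread of the single remaining library to equal that of the other group. The lowest count of regulators higher came without wild-type replicate 1, and the lowest count lower without wild-type replicate 2. DESeq2, limma with either pseudocount, median-of-ratios factors and the filter of 0.1 FPKM or none left all 44 RAB genes on their side of the threshold. With the replicate block, 9 RAB genes were higher and 9 lower, and 7108 genes were called in place of 6581. Deviations of same-numbered libraries had a correlation of -0.00144 across genes, with 2 pairs, so the numbers were not taken to pair the libraries. The cause of these shifts was not tested. Depth limits the 19 RAB genes below the filter, which are given by their counts.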

Other observations

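Rows with RAB-derived names that the naming rule left out were also looked at. RAB5IF, a protein-coding gene named as an interacting factor of RAB5, was at 21.1 and 23.2 FPKM in wild type and at 15.9 and 14.1 in the knockout, without overlap (log2 fold change -0.56 ± 0.09, edgeR adjusted p = 0.000199). RAB11B-AS1, an antisense RNA beside RAB11B, was at 2.38 and 2.10 FPKM against 1.99 and 2.48, with overlapping groups. RAB30-AS1 was at 1.43 and 1.25 FPKM against 1.51 and 1.33, also with overlap. The processed pseudogene RAB43P1 was listed at 3.82 and 3.80 FPKM in wild type and at 4.69 and 2.43 in the knockout, higher per length than RAB43 itself in every library. RAB40AL, a close relative of RAB40A, had no count in wild type and 3 and 1 counts in the knockout.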
